A study of Mus musculus with 2 samples.

Results

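The miRNAs described here are 10 mature miRNAs from 7 hairpins of the imprinted Dlk1-Dio3 region of mouse chromosome 12, namely miR-770, miR-673, miR-493, miR-337, miR-540, miR-341 and miR-370. They were chosen by name, with earlier results of these data known. Their hairpins lie outside the group antisense to Rtl1 and outside the miR-379 to miR-410 cluster. The chosen miRNAs make up 10 of the 1358 miRNAs of the deposited table. Mir665, Mir3070a, Mir3070b and Mir1188 also lie outside both groups and are not among them, and neither is miR-1247, which was listed with the region too. Both arms of miR-673, miR-493 and miR-337 were taken, and the 3p arm of miR-770, miR-540, miR-341 and miR-370. The 5p arms of these last 4 hairpins were in the table too and are called opposite arms below. The series profiled small RNA in whole retina at postnatal day 0, the day of birth, from wild-type mice of the outbred CD-1 strain. It held 1 group with 2 libraries, replicate 1 and replicate 2, and no treated or mutant group. No label says whether the libraries came from different mice, so differences between them may be technical. The p-values below come from tests on counts and cover counting error only, not the spread between mice.

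The Dlk1-Dio3 region carries protein-coding genes expressed from the paternal chromosome, among them Dlk1, Rtl1 and Dio3, and long noncoding RNAs expressed from the maternal chromosome, among them Meg3, Rian and Mirg. Its miRNA hairpins lie along these maternal transcripts, and most of its miRNAs are best known from the embryo, the placenta and the brain. A hairpin is cut into a duplex of a 5p and a 3p arm, one of which is usually kept and loaded into an Argonaute protein, where bases 2 to 8, the seed, pair with target mRNAs. Of the members, miR-370-3p has been studied in human liver cells as a regulator of the fatty acid oxidation gene CPT1A, and miR-493-5p in human colon cancer cells as a regulator of the growth factor receptor IGF1R.

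The mature sequences show what was counted and that the members are not a seed family. They are given 5′ to 3′ from RefSeq (GRCm38.p6, plus strand of chromosome 12), with the seed in capitals, in the order of the hairpins along the chromosome.
miR-770-3p: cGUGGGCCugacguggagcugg
miR-673-5p: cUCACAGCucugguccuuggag
miR-673-3p: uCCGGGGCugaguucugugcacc
miR-493-5p: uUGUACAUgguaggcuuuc
miR-493-3p: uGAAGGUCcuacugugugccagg
miR-337-5p: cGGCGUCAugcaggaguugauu
miR-337-3p: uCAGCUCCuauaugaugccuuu
miR-540-3p: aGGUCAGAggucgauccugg
miR-341-3p: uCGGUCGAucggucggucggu
miR-370-3p: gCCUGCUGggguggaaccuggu

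The 10 members had 10 distinct seeds. Seeds were compared over the 1152 of 1358 miRNAs of the table that had a RefSeq mature sequence. Among these, miR-673-5p shared its seed with miR-6985-3p, which was at 0 counts in both libraries, and miR-540-3p shared its seed with miR-6915-5p, at 0.360 CPM (counts scaled to a common library size) in replicate 1 and 0.493 CPM in replicate 2. No other miRNA with a sequence had the seed of any of the remaining 8 members. The members had a median GC content of 59.5%, with a range of 40.9% for miR-337-3p to 72.7% for miR-770-3p, against a median of 52.2% and quartiles of 43.5% and 60.9% for the 1152 miRNAs of the table with a sequence. Of the members, 5 began with U, 3 with C, 1 with A and 1 with G. Among the 786 miRNAs with a sequence that were detected in both libraries, the shares were 44.0% for U, 20.2% for C, 25.6% for A and 10.2% for G.

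The hairpins are spread over the first part of the region. Counted from the start of Mir770, which spans 109563692 to 109563785, Mir673 starts at 8.3 kb (109571990 to 109572080), Mir493 at 16.5 kb (109580233 to 109580315), Mir337 at 22.1 kb (109585789 to 109585885), Mir540 at 22.4 kb (109586080 to 109586146), Mir341 at 47.8 kb (109611500 to 109611595) and Mir370 at 54.6 kb (109618258 to 109618336), all on the plus strand. In GENCODE M21, Mir770 lies within the lincRNA Meg3, in an exon of 1 of the 4 transcripts that span it and in an intron of the others, and Mir341 and Mir370 lie in introns of Rian. No annotated transcript of the plus strand other than their own spans Mir673, Mir493, Mir337 or Mir540. Mir337 overlaps Mir3544 of the minus strand. Whether counting used the strand is not given in the sources used here. The most frequent read of miR-337-5p had the plus-strand letters in both libraries. Other reads were not given, so this does not show whether reads of Mir3544 were counted with it.

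The hairpins of miR-341 and miR-370 are shown because the first is a repeat and the second gave the most counts. They are given 5′ to 3′ from RefSeq, with the 5p and 3p arms in capitals.
Mir341: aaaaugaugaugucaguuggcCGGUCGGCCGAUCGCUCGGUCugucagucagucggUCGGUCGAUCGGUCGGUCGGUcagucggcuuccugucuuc
Mir370: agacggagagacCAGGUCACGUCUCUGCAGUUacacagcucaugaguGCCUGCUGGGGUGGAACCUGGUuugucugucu

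The tetramer GGUC, searched on the hairpin strand only, occurs 7 times in Mir341, of which 3 lie in the 3p arm. At least 1 GGUC is present in 24.9% of the 1005 mouse hairpins of the RefSeq table, and 1 hairpin of that table, Mir341 itself, holds 7 or more. The tetramer was chosen for the repeat of Mir341, so its count describes that sequence and is not a test of it against other hairpins. The counts of both miR-341 arms were whole numbers, as were those of all 10 members. This was the usual case, since only 6.77% of the counts of the table in replicate 1 and 5.96% in replicate 2 were fractions.

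The retina was checked against its known miRNAs before levels were read. The 5 retinal markers miR-9-5p, miR-182-5p, miR-183-5p, miR-96-5p and miR-124-3p were present in both libraries and held 39.8% of the counts in replicate 1 and 42.0% in replicate 2. Of 11 markers of other cells and tissues 8 were detected, with 0.570% of the counts in replicate 1 and 0.492% in replicate 2. The highest of these were miR-204-5p (3784 and 2994 CPM), miR-126a-3p (969 and 840) and miR-184-3p (738 and 869), in replicate 1 and replicate 2. Each exceeded the retinal marker miR-124-3p, at 701 CPM in replicate 1 and 597 CPM in replicate 2. The other detected markers of other cells were at 73.0 CPM or less in both libraries. No count was found for miR-150-5p, miR-205-5p or miR-223-3p. The libraries held 8337902 counts in replicate 1 and 8118208 in replicate 2, so that a miRNA without counts could reach up to 3 counts, or 0.360 CPM in replicate 1 against 0.370 CPM in replicate 2. Levels are given as CPM of the total of the count table, and since each read is a whole miRNA, no scaling by length was applied. The intervals given with them are exact binomial 95% intervals, and intervals and floors cover counting error only. In whole retina, more cells that make a miRNA and more copies per cell cannot be told apart, and the adapter ligation yield differs between sequences.

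All 10 members were detected in both libraries, against 68.0% of the 1358 miRNAs of the table. Their levels spanned a wide range, with miR-370-3p far above the rest and miR-337-3p at the edge of detection. A mean of 100 CPM or more was reached by 3 members, against 13.3% of all miRNAs, and a mean of 10 CPM or more by 8, against 26.9% of all miRNAs. The median member was at 34.6 CPM, and the median of the 1151 miRNAs detected in at least 1 library was 1.47 CPM. The members were chosen with earlier results of these data known and leave out the opposite arms, whose median was 4.53 CPM. These shares therefore describe the chosen arms and are not a test of them against other miRNAs. The members together held 0.313% of the counts in replicate 1 (0.309 to 0.316) and 0.276% in replicate 2 (0.273 to 0.280), with a mean of 0.294% ± 0.0257 (SD, n = 2).

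miR-370-3p, from the hairpin nearest to the miR-379 to miR-410 cluster, held most of these counts. It had 21256 counts in replicate 1, or 2549 CPM (2515 to 2584), and 18265 counts in replicate 2, or 2250 CPM (2217 to 2283). Its mean of 2400 ± 212 CPM (SD, n = 2) placed it at rank 42 of 1358. It made up 81.5% of the members' counts in replicate 1 and 81.4% in replicate 2, so any sum over the members is mostly a measure of this miRNA. It exceeded miR-770-3p, the next member, by a log2 ratio of 3.50 in replicate 1 and 3.37 in replicate 2 (mean 3.43 ± 0.090, SD, n = 2), or 10.8-fold.

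miR-770-3p, from the hairpin within Meg3, was the most even member between the libraries among those above 100 CPM. It had 1881 counts in replicate 1, or 226 CPM (216 to 236), and 1766 counts in replicate 2, or 218 CPM (208 to 228), with a mean of 222 ± 5.70 CPM (SD, n = 2) and rank 135. miR-337-5p came next with 1276 counts or 153 CPM (145 to 162) in replicate 1 and 930 counts or 115 CPM (107 to 122) in replicate 2, with an SD of 27.2 CPM and rank 165. The log2 ratio of miR-770-3p over miR-337-5p was 0.56 in replicate 1 and 0.92 in replicate 2.

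The other members lay below 100 CPM. miR-341-3p, from the GGUC repeat, had 606 counts or 72.7 CPM (67.0 to 78.7) in replicate 1 and 510 counts or 62.8 CPM (57.5 to 68.5) in replicate 2. miR-493-5p had 345 counts or 41.4 CPM in replicate 1 and 287 counts or 35.4 CPM in replicate 2, and miR-540-3p had 278 counts or 33.3 CPM in replicate 1 and 230 counts or 28.3 CPM in replicate 2. All 3 were lower in replicate 2 than in replicate 1, each within overlapping counting intervals. The 2 arms of miR-673 went the other way. miR-673-3p had 168 counts or 20.1 CPM in replicate 1 and 219 counts or 27.0 CPM in replicate 2, and miR-673-5p had 146 counts or 17.5 CPM in replicate 1 and 168 counts or 20.7 CPM in replicate 2. miR-493-3p had 107 counts or 12.8 CPM (10.5 to 15.5) in replicate 1 and 49 counts or 6.04 CPM (4.47 to 7.98) in replicate 2. miR-337-3p had 3 counts in replicate 1, or 0.360 CPM (0.0742 to 1.05), and 6 counts in replicate 2, or 0.739 CPM (0.271 to 1.61), levels close to what a count of 0 allows.

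**Figure D1:**
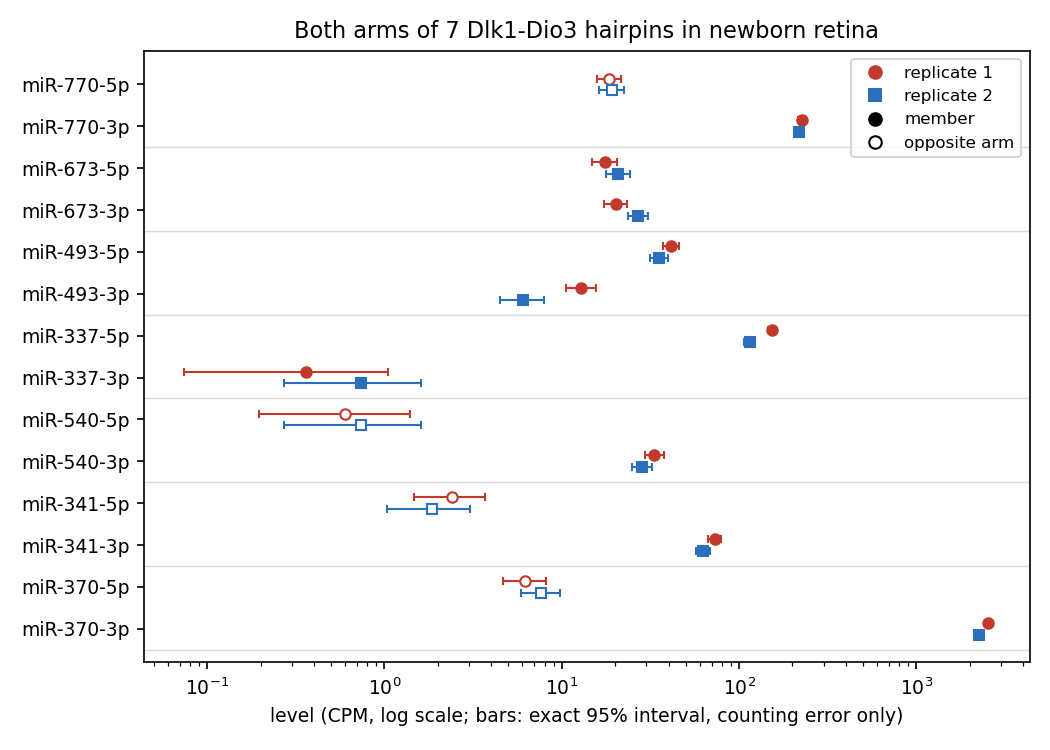
Level of both arms of the 7 hairpins in each library, in CPM on a log axis, with the hairpins from top to bottom in their order along the chromosome. Filled points are members and open points opposite arms, and the bars are exact 95% intervals. miR-370-3p stands at 2549 and 2250 CPM, and the intervals of miR-370-3p, miR-337-5p, miR-673-3p and miR-493-3p do not overlap between the libraries.

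The order of the members by mean level was miR-370-3p, miR-770-3p, miR-337-5p, miR-341-3p, miR-493-5p, miR-540-3p, miR-673-3p, miR-673-5p, miR-493-3p and miR-337-3p. Neighbours in this order were set against each other within a library, as a log2 ratio of counts with a two-sided exact binomial test for a departure from equality. A difference was called where both libraries passed at an adjusted p under 0.05 with the same sign and the mean ratio exceeded 2 SD. Of the 9 neighbouring pairs 6 were called, from miR-370-3p down to miR-540-3p and again between miR-493-3p and miR-337-3p. The smallest called step was that of miR-493-5p over miR-540-3p, with a log2 ratio of 0.31 in replicate 1 and 0.32 in replicate 2. Neighbours among miR-540-3p, miR-673-3p, miR-673-5p and miR-493-3p were not called, with mean log2 ratios of 0.40 ± 0.46, 0.29 ± 0.13 and 1.11 ± 0.93 (SD, n = 2). Only neighbours were compared, so members further apart in the order were not tested against each other. The order was read from the same counts as these ratios, so their direction is a description.

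Other miRNAs had nearly the same levels as the members in both libraries. The measure was the larger of the absolute differences in log2 CPM over the 2 libraries, which is too few to compare patterns across samples. The nearest to miR-370-3p was miR-26b-5p at 2552 CPM in replicate 1 and 2194 CPM in replicate 2, a difference of 0.036. The nearest to miR-770-3p was miR-3099-3p (0.0092), and the nearest to miR-493-5p was miR-199a-5p (0.025). The nearest to miR-337-5p was miR-411-3p of the miR-379 to miR-410 cluster (0.060). For the others the nearest were miR-7a-2-3p (miR-673-5p, 0.075), miR-6239 (miR-673-3p, 0.14), miR-497b (miR-493-3p, 0.36), miR-467e-5p (miR-540-3p, 0.046), miR-187-3p (miR-341-3p, 0.098) and miR-28c, which had the same counts as miR-337-3p in both libraries.

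Along the chromosome the level did not change steadily, and neighbouring hairpins differed widely. With both arms summed, Mir770 stood at 244 CPM in replicate 1 and 237 CPM in replicate 2, Mir673 at 37.7 and 47.7 CPM, Mir493 at 54.2 and 41.4 CPM, and Mir337 at 153 and 115 CPM, in the same order of libraries. Mir540, whose start lies 0.195 kb after the end of Mir337, stood at 33.9 CPM in replicate 1 and 29.1 CPM in replicate 2. Mir341 and Mir370, both in Rian introns and 6.66 kb apart, stood at 75.1 and 2556 CPM in replicate 1 and at 64.7 and 2258 CPM in replicate 2. Of the 52 hairpins of the RefSeq table between Mir770 and Mir410 with a row in the count table, Mir370 was the fourth, after Mir541, Mir381 and Mir434, Mir770 the fifteenth and Mir337 the nineteenth, whereas Mir341, Mir493, Mir673 and Mir540 held ranks 22, 25, 29 and 30.

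**Figure D2:**
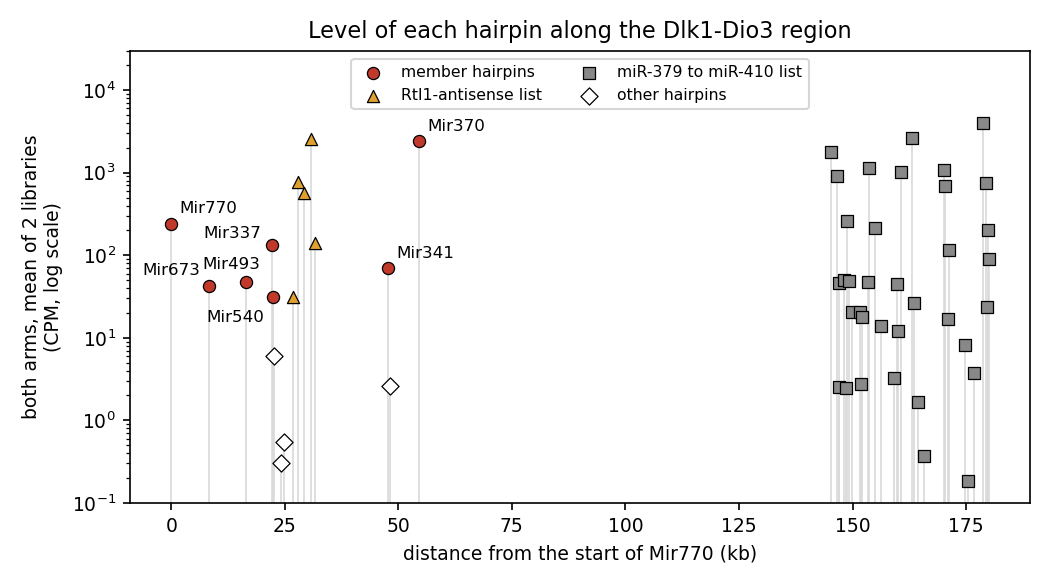
Level of each hairpin with both arms summed, as the mean of the 2 libraries in CPM on a log axis, against its distance in kb from the start of Mir770. Red circles are the 7 hairpins described here, triangles the group antisense to Rtl1, squares the miR-379 to miR-410 cluster and open diamonds other hairpins. Mir370 stands with the highest hairpins of either group, and the other 6 lie between 31.5 and 240 CPM.

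The 10 members together held fewer counts than the group antisense to Rtl1 and fewer than the miR-379 to miR-410 cluster. The group antisense to Rtl1, miRNAs that can cut the Rtl1 transcript, held 0.445% of the counts in replicate 1 and 0.370% in replicate 2 over its 10 arms. The log2 ratio of the members over it was -0.51 in replicate 1 and -0.42 in replicate 2 (mean -0.47 ± 0.062, SD, n = 2). The miR-379 to miR-410 cluster held 1.60% in replicate 1 and 1.45% in replicate 2 over its 73 arms, and the log2 ratio of the members over it was -2.36 in replicate 1 and -2.39 in replicate 2. Without miR-370-3p the mean ratios were -2.90 to the first group and -4.81 to the second. The size of both gaps thus depends on that miRNA. Leaving out a member could only widen gaps of this direction, so it does not test the direction. The ratios without the leading arm of either other group were not computed. The median arm was at 34.6 CPM among the members, against 69.7 CPM in the group antisense to Rtl1 and 4.72 CPM in the cluster. The members leave out the 4 opposite arms, whose median was 4.53 CPM, whereas both arms were counted in the other groups. The leading arm was miR-370-3p at 2549 CPM in replicate 1 and 2250 CPM in replicate 2 among the members, against miR-434-5p at 2405 and 1908 CPM, and miR-541-5p at 4121 and 3782 CPM, in the same order of libraries.

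Arm use differed from hairpin to hairpin. Arms were compared by the log2 ratio of 5p over 3p counts within a library, with 0.5 added to each count, and the same binomial rule over the 312 hairpins of the table that had rows for 5p and 3p and 10 counts or more over them in each library. A difference between arms was called for 6 of the 7 hairpins, against 89.4% of all 312. The 3p arm held 4 times the counts of the 5p arm or more in both libraries in 4 of them, miR-370, miR-540, miR-341 and miR-770, against 36.9% of all hairpins, and the 5p arm did so in 1, miR-337, against 40.4% of all hairpins. A 4-fold ratio for either arm was found in 77.2% of all hairpins. The median absolute log2 arm ratio was 4.96 for the 7 hairpins and 4.59 for all 312. In the 4 hairpins with 1 member each, that member is the arm with more counts, and the choice was made with earlier results known.

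The 4 hairpins that favoured the 3p arm did so to different degrees. miR-370-5p had 52 counts in replicate 1 and 62 in replicate 2, which gives a log2 ratio of 5p over 3p of -8.66 in replicate 1 and -8.19 in replicate 2. miR-540-5p had 5 and 6 counts and log2 ratios of -5.66 and -5.15, and miR-341-5p had 20 and 15 counts and log2 ratios of -4.89 and -5.04, in the same order of libraries. miR-770-5p, at 18.5 CPM in replicate 1 and 19.2 CPM in replicate 2, was the opposite arm with the most counts. The miR-770 hairpin gave 7.57% of its counts from the 5p arm in replicate 1 (6.46 to 8.80) and 8.12% in replicate 2 (6.93 to 9.43), which is a mean log2 ratio of -3.55 ± 0.077 (SD, n = 2).

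miR-337, miR-493 and miR-673 are the hairpins of which both arms are members. miR-337 was almost wholly 5p, with a log2 ratio of 5p over 3p of 8.51 in replicate 1 and 7.16 in replicate 2. Since the 3p arm had only 3 and 6 counts, the ratio is imprecise, at 425-fold in replicate 1 with an exact 95% interval of 145 to 2065 and 155-fold in replicate 2 with an interval of 70.9 to 423. miR-493 favoured the 5p arm less, with log2 ratios of 1.68 in replicate 1 and 2.54 in replicate 2, which lie on either side of the 4-fold limit. miR-673 used both arms, with log2 ratios of -0.20 in replicate 1 and -0.38 in replicate 2. Its difference was not called, because the exact binomial test passed in replicate 2 (adjusted p = 0.0122) and not in replicate 1 (adjusted p = 0.247), and its 5p share had an exact 95% interval of 40.9% to 52.2% in replicate 1 and 38.4% to 48.5% in replicate 2.

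**Figure D3:**
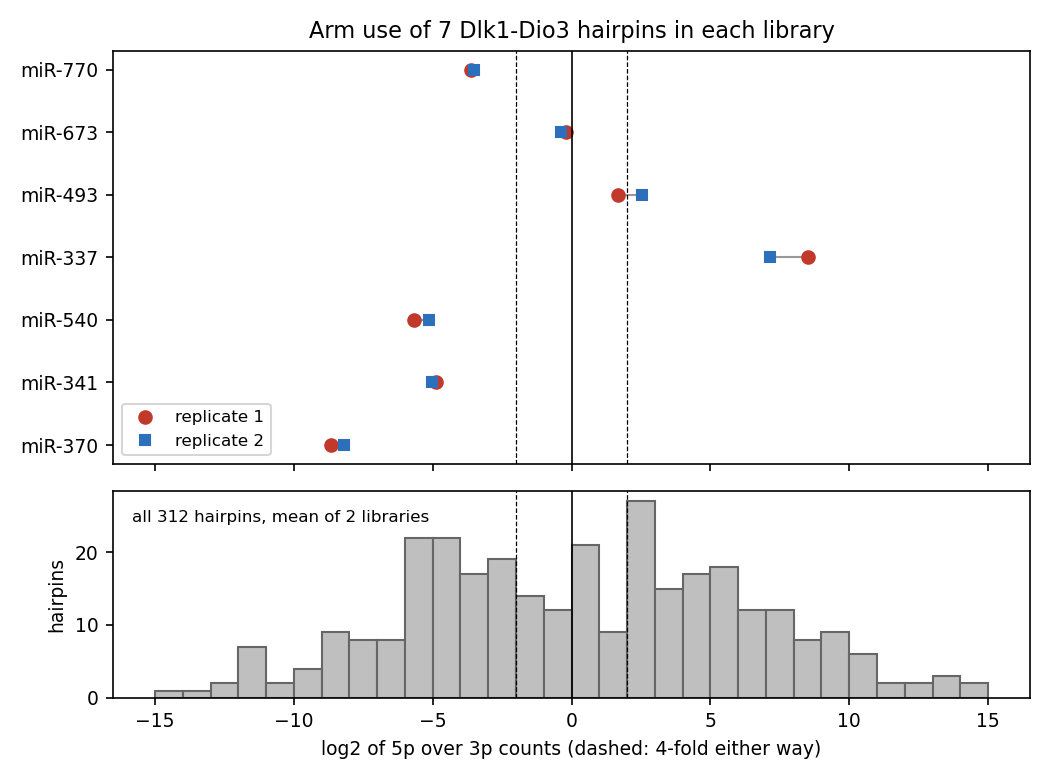
Top, log2 ratio of 5p over 3p counts of the 7 hairpins in each library, with the hairpins in their order along the chromosome. Bottom, the mean ratio of all 312 hairpins of the table, with dashed lines at a 4-fold ratio either way. miR-337 lies far on the 5p side, miR-673 next to 0, and miR-370 on the 3p side at -8.66 and -8.19.

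The libraries differed beyond counting error for 4 of the 9 members that could be tested, those with at least 10 counts over both libraries. miR-337-3p, with 9 counts in all, was not tested. The comparison was an exact two-sided binomial test with Benjamini-Hochberg adjustment over all 710 miRNAs tested, and it compares libraries, not conditions. Of all 710, 27.9% were called, and of the 326 within the level range of the tested members 46.6%, so a share of 4 of 9 is near what miRNAs of that level showed. Of the members called 3 were higher and 1 lower in replicate 1, and of all 710 miRNAs 139 (19.6%) were higher and 59 (8.31%) lower. This last split depends on the scaling, since it was 80 higher and 107 lower with edgeR's TMM totals and 88 and 101 with DESeq2 size factors. The median log2 ratio of replicate 1 over replicate 2 over all 710 was 0.122 when scaled by table totals, 0.004 with TMM totals and 0.020 with DESeq2 size factors, while the members' split was 3 and 1 under all 3.

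miR-493-3p differed the most, with 107 counts or 12.8 CPM in replicate 1 and 49 counts or 6.04 CPM in replicate 2. Its log2 ratio of replicate 1 over replicate 2 was 1.08 (exact 95% interval 0.59 to 1.61, adjusted p = 5.32e-05), which is 0.96 above the median of all miRNAs. miR-337-5p had a log2 ratio of 0.42 (0.29 to 0.54, adjusted p = 1.34e-10, exact binomial test), or 0.30 above that median. miR-370-3p had a log2 ratio of 0.18 (0.15 to 0.21, adjusted p = 4.56e-34, exact binomial test), narrow at 39521 counts, and lay only 0.06 above the median of all miRNAs. miR-673-3p was the one called lower in replicate 1, with a log2 ratio of -0.42 (-0.72 to -0.12, adjusted p = 0.0186, exact binomial test), or -0.54 from the median. The retinal markers held 39.8% of the counts in replicate 1 and 42.0% in replicate 2 and the markers of other cells 0.570% and 0.492%, and their part in these differences was not tested.

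The remaining 5 tested members were not called, which does not show that they were equal. miR-341-3p had a log2 ratio of 0.21 (0.04 to 0.38, adjusted p = 0.0536, exact binomial test), just above the threshold of 0.05. miR-540-3p and miR-493-5p both had a ratio of 0.23, and miR-673-5p had -0.24 with an interval of -0.57 to 0.09. miR-770-3p had 0.05 with an interval of -0.04 to 0.15, and its sign turned under both other scalings, with -0.07 by TMM and -0.05 by DESeq2 size factors.

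**Figure D4:**
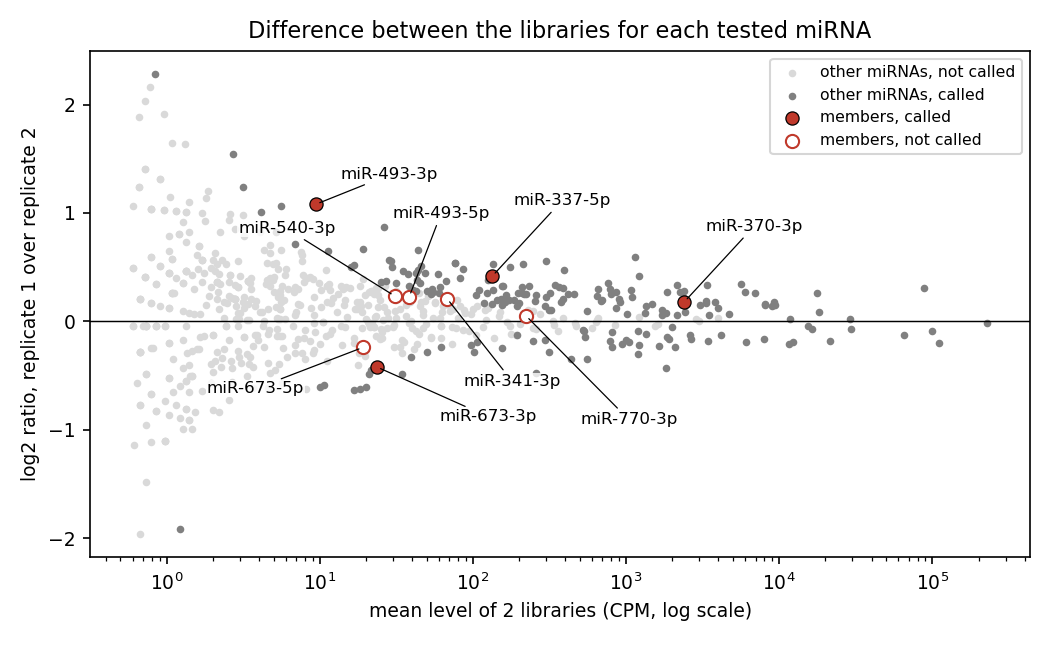
Log2 ratio of replicate 1 over replicate 2 for each of the 710 tested miRNAs, against the mean level in CPM on a log axis. Grey points are other miRNAs, large filled points members called in the exact binomial test and large open points members not called. miR-493-3p stands at 1.08, above most miRNAs of its level, and both arms of miR-673 lie below 0.

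The 2 arms of miR-493 did not differ alike between the libraries. The 5p arm had 345 and 287 counts and the 3p arm 107 and 49 in replicate 1 and replicate 2, so the 5p share of the hairpin was 76.3% in replicate 1 (72.1 to 80.2) and 85.4% in replicate 2 (81.2 to 89.0). A two-sided Fisher's exact test of arm by library, which needs no scaling between libraries, gave an adjusted p of 0.0185 over all 312 hairpins. This comparison was added after the values had been seen. It was called for 1 of the 7 hairpins, against 8.65% of all 312, and the next lowest among the 7 was miR-370 (adjusted p = 0.483, Fisher's exact test). Both libraries favoured the 5p arm of miR-493, but to a degree that differed by more than counting error.

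A further deposited file names the most frequent read of every miRNA per library, compared with miRBase 21. In 9 of the 10 members this read started at the RefSeq mature base in both libraries. The share was 89.8% of the 314 miRNAs with a sequence at 10 CPM or more and 74.7% of the 817 with a read in both libraries. For these 9 members the seeds shown above are those of the most frequent read, and other reads were not given. The exception was miR-337-3p in replicate 1, where the read rested on at most 3 counts, started 1 base earlier and had 1 mismatch. In 7 of the 10 the read was the same in both libraries, against 93.0% of those at 10 CPM or more and 64.5% of the 817. The others were miR-337-3p, miR-673-5p and miR-540-3p, and the last 2 varied at the 3′ end only.

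The 3′ ends showed where the annotated and the sequenced forms part. The reads are given 5′ to 3′ as deposited, in DNA letters, with the bases beyond the mature entry in capitals, and each is shown for its end. All of them match their hairpin exactly.
miR-493-5p, both libraries: ttgtacatggtaggctttcATT
miR-540-3p, replicate 1: aggtcagaggtcgatcctggGC
miR-540-3p, replicate 2: aggtcagaggtcgatcctggG
miR-673-5p, replicate 1: ctcacagctctggtccttgg
miR-673-5p, replicate 2: ctcacagctctggtccttgga
miR-770-5p, both libraries: agcaccacgtgtctgggccacgT
miR-370-5p, both libraries: AGACcaggtcacgtctctgcagt

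The mature entry of miR-493-5p has 19 bases and the most frequent read 22, with 3 added bases that are the next bases of the hairpin. The miR-540-3p entry has 20 bases, and the read was 2 bases longer in replicate 1 and 1 base longer in replicate 2. The miR-673-5p entry has 22 bases, and the read was 2 bases shorter in replicate 1 and 1 base shorter in replicate 2. Bases were added at the 3′ end in both libraries in 2 of the 10 members, against 24.1% of all miRNAs with a read sequence in both libraries and 19.7% of those at 10 CPM or more. These differences do not touch the seed.

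Among the opposite arms, miR-370-5p differed from its entry in both libraries at the end that does set the seed. Its most frequent read started 4 bases before the entry in both libraries, covering 109618266 to 109618288, and ended 1 base earlier. A start shifted by the same number of bases in both libraries was found in 8.60% of the miRNAs at 10 CPM or more and in 13.1% of all 817. Bases 2 to 8 of the read were GACCAGG, whereas those of the entry are AGGUCAC, the seed of miR-1193-3p of the same region (15.6 CPM in replicate 1 and 13.5 CPM in replicate 2). No other miRNA with a sequence had the seed of the read. The arm had 52 counts in replicate 1 and 62 in replicate 2, and the file does not say how many of them were this read. miR-370-3p, which held the counts of this hairpin, had the same read as its entry in both libraries. Another opposite arm, miR-540-5p, had a shifted start in replicate 1 only. That read started 1 base after the entry, had 1 mismatch and rested on at most 5 counts.

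**Figure D5:**
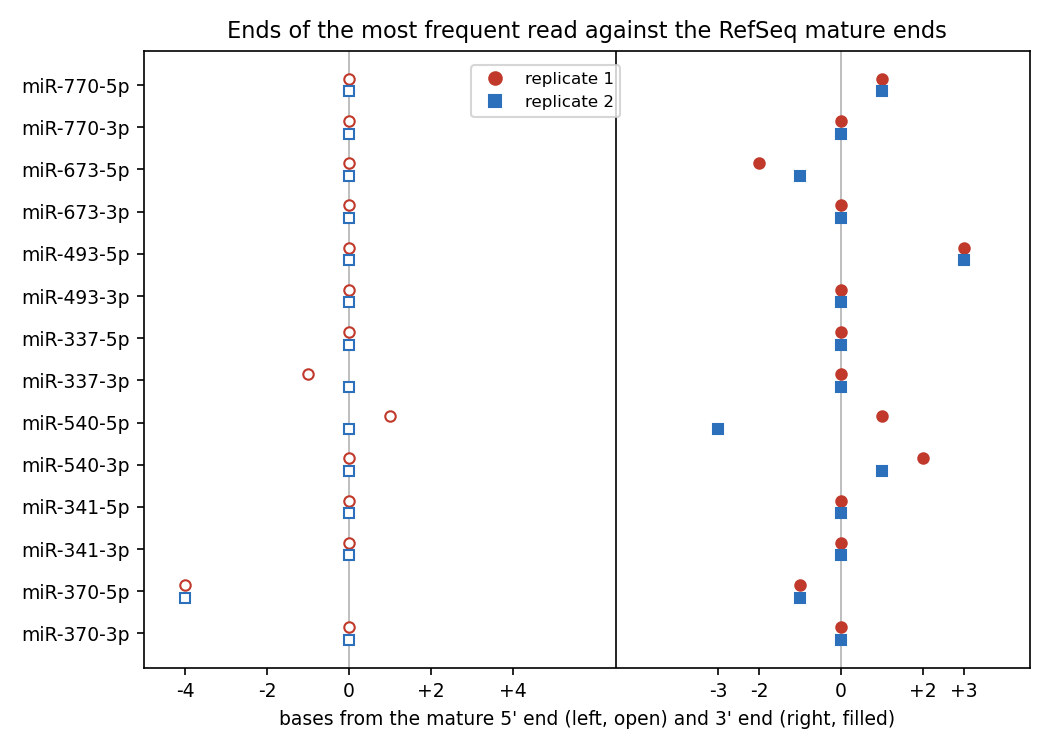
Position of the 5′ end (left, open) and the 3′ end (right, filled) of the most frequent read against the RefSeq mature ends, in bases, for both arms of the 7 hairpins in each library. Negative values lie before the annotated end. Members keep the annotated 5′ end except miR-337-3p in replicate 1, and miR-493-5p ends 3 bases late. Of the opposite arms, miR-370-5p starts 4 bases early in both libraries and miR-540-5p starts 1 base late in replicate 1.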

How the data were processed

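Small RNA from P0 retina was taken at 18 to 30 nt from a gel and made into ligation-based libraries, with cDNA of 60 to 80 nt taken from a second gel, per the labels' protocols. Per the submitters' processing notes, bcl2fastq 2.17.1.14 made the read files. No source used here names the aligner, counter or build. The deposited table held estimated counts per mature miRNA, rounded to whole numbers for tests. The CPM values deposited by the authors used a total of their own, so that each column held only 88.5% of a full library. CPM here was the count over the table total, 1.13 times the deposited CPM. The third deposited file held text, the most frequent read of each miRNA.

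Every member was named, with the listed opposite arms, the miRNA nearest in level to each member, those sharing a seed and the leading arm of each list. The members and lists were chosen with earlier results of these data known. Coordinates and sequences are from RefSeq GRCm38.p6 and GENCODE M21, not from the authors' alignment. All 14 arms matched RefSeq by name. With 1 group no condition was tested. Binomial tests were checked on simulated counts that varied by counting error only, so the check does not cover other variation between libraries. Alternatives were other scalings, minimum counts, added counts and each library alone. Software was R 4.3.3 with edgeR 4.0.16 and DESeq2 1.42.0 for scaling only, and Python 3.11.15 with SciPy 1.17.1, statsmodels 0.14.6, pandas 2.3.3, NumPy 2.4.6 and matplotlib 3.10.9.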

Additional observations from a re-analysis of the deposited data

How the results depend on the processing

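No paired analysis was possible because the series has 1 group. The number of members that differed between the libraries was 4 by table totals, TMM, DESeq2 size factors and with no minimum count, and 5 with a minimum of 50 counts, where miR-341-3p also passed (adjusted p = 0.0374, exact binomial test). Under TMM and DESeq2 scaling the uncalled log2 ratio of miR-770-3p turned to -0.07 and -0.05. The number of hairpins with a called arm difference was 6 under each alternative except replicate 2 alone, where it was 7 because miR-673 passed. Leaving out miR-370-3p moved the log2 ratio of the members over the group antisense to Rtl1 to -2.90 and that over the miR-379 to miR-410 cluster to -4.81. With each library alone these ratios ranged from -0.51 to -0.42 and from -2.39 to -2.36. The deposited CPM lowered all 10 levels by about the same factor of 1.13. This was more than 1 SD for 4 of them, and which ones passed depends on the size of each SD. Of the neighbouring pairs not called, miR-540-3p over miR-673-3p passed in replicate 1 alone (0.72) and miR-673-3p over miR-673-5p in replicate 2 alone (0.38). The pair of miR-673-5p over miR-493-3p passed in each library (0.45 and 1.77) but within 2 SD. With 2 libraries each SD is imprecise, and the 3 and 6 counts of miR-337-3p limit every ratio that uses it.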

Other observations

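Of the hairpins that lie between the members, the 4 outside the group antisense to Rtl1 gave few counts. With both arms summed, Mir665, which follows Mir540, stood at 6.24 CPM in replicate 1 and 5.67 CPM in replicate 2, and Mir1188, which follows Mir341, stood at 3.48 CPM in replicate 1 and 1.72 CPM in replicate 2. Mir3070a and Mir3070b stood below 1 CPM in both libraries. Mir370, the hairpin after Mir1188, stood at 2556 CPM in replicate 1 and 2258 CPM in replicate 2.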
